A study of Mus musculus with 4 samples.

Results

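Trim33 peaks whose summit lay more than 100 and at most 1000 bp from the nearest end of a protein-coding gene made up 3251 of the 27050 peaks of the series (12.02%, 95% interval 11.6% to 12.4%). They were taken from chromosomes 1 to 19, which held 26631 peaks, and only where no second protein-coding gene had an end within 1000 bp of the summit. Gene ends came from the RefSeq table of GRCm38.p6, the assembly also called mm10, which is the build of the peak list. The study used chromatin immunoprecipitation followed by sequencing (ChIP-seq) with 2 Trim33 ChIP libraries, made with a Bethyl antibody, and 2 input libraries. All 4 came from C57BL/6 mice. Naive CD4+ T cells of spleen and lymph nodes were turned into T helper 17 (Th17) cells in culture, on plates coated with anti-CD3 and anti-CD28, with IL-6, TGF-b and antibodies to IL-4 and IFN-g. The deposited peaks were called on merged replicates, so each peak has 1 value, there is no spread between libraries, and the depth of each library is unknown. No other cell type and no cells without Trim33 are in the series, and expression was not measured, so the cell type was not checked against its markers.

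Trim33, also called TIF1-gamma, is a ubiquitin ligase of the TRIM family that reads modified histone tails through a PHD finger and a bromodomain. It is known as a partner of receptor-activated SMADs and as a ligase for SMAD4, and so belongs to TGF-beta signalling, the pathway that together with IL-6 sets naive T cells on the Th17 course. The region just before a gene's start holds its promoter, the region just inside holds the first exon and often the start of the first intron, and a gene's other end, called its 3′ end below, is where transcription finishes.

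Sequence around the summit is shown first for the named genes with the highest enrichment whose summit lay before the gene in a RefSeq promoter window, which runs from 250 bp before to 50 bp after an annotated start (RefSeq, GRCm38.p6). Each run is read along the gene's strand and holds the summit with 50 bases on each side, except where the window ends sooner, as in Stat3 and Utp3. Capitals mark matches, on either strand, to the 9 short motifs that were searched: CAGAC of SMADs, TGANTCA of AP-1, CCGGAA of ETS factors, TGTGGT of RUNX factors, CCAAT of NF-Y, GGGCGG of SP and KLF factors, TTCNNNGAA of STATs, AGGTCA of nuclear receptors such as the ROR family, and GCGCATG of NRF1. A match is a run of letters and not a shown binding site. Bpifc lies on the minus strand at chr10:86011974-86012074, Jak2 on the plus strand at chr19:29251594-29251694, Cenpu on the plus strand at chr8:46551827-46551927 and Cdkn2aip on the minus strand at chr8:47714033-47714133. Mrpl17 lies on the minus strand at chr7:105811221-105811321, Stat3 on the minus strand at chr11:100939704-100939790, Nfkbie on the plus strand at chr17:45555541-45555641 and Spry1 on the plus strand at chr3:37639778-37639878.
Bpifc: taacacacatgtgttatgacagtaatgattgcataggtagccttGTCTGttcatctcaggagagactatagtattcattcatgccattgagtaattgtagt
Jak2: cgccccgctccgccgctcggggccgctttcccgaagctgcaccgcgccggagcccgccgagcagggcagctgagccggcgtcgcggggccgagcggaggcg
Cenpu: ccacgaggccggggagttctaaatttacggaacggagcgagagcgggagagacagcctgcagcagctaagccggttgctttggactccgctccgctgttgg
Cdkn2aip: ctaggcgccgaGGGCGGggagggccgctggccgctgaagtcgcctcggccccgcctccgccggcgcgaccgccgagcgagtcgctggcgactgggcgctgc
Mrpl17: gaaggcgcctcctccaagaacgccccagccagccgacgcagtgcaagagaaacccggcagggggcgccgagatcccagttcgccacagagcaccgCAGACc
Stat3: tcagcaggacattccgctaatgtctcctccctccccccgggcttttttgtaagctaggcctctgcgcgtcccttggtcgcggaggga
Nfkbie: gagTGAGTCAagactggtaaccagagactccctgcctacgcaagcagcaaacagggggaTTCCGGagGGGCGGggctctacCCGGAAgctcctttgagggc
Spry1: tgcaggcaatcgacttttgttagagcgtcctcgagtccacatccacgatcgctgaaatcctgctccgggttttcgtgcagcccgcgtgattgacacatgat
The runs of Jak2, Cenpu, Stat3 and Spry1 hold none of the 9 motifs. Bpifc holds CAGAC, read on the other strand, with its centre 4 bases before the summit. Nfkbie holds the AP-1 motif, GGGCGG and 2 copies of CCGGAA.

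The ETS motif had the highest density near the summit relative to other promoters, as described further on, so 4 more promoters are shown for it. They have the highest enrichment among the 42 further summits before a gene with CCGGAA centred within 25 bp, and were chosen after the values were seen. Sde2 lies on the plus strand at chr1:180850967-180851067, Atp11b on the plus strand at chr3:35753872-35753972, Utp3 on the plus strand at chr5:88554212-88554297 and Dpy19l3 on the minus strand at chr7:35754518-35754618.
Sde2: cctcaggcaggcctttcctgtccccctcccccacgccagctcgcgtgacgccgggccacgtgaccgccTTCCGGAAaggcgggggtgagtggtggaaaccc
Atp11b: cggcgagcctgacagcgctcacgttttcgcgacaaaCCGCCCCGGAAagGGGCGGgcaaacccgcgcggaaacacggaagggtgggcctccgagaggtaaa
Utp3: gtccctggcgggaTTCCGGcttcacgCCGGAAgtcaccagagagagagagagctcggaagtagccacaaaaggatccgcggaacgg
Dpy19l3: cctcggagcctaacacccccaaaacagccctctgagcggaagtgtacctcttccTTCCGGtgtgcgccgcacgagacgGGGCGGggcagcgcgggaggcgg
Sde2, a factor of DNA replication stress, had 13.9-fold enrichment and Atp11b, a phospholipid flippase, 13.3-fold. Utp3, a ribosome assembly factor, had 11.5-fold and Dpy19l3, a mannosyltransferase, 11.1-fold. In Sde2 the motif occurs on both strands in overlapping copies, and in Utp3 it occurs 2 times, 19 and 6 bases before the summit.

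Most of these peaks belonged to gene starts. RefSeq promoter records gave the gene's direction for 2577 of the 3153 members that are not on chromosome 18, and for none of the 98 on that chromosome. A gene's start means here its first base in that direction. Some genes, such as Kcnn4 and Socs3, have no recorded start at that base. Of the 2577, 2317 lay by the start (89.9%, 95% interval 88.7% to 91.0%) and 260 by the 3′ end (10.1%, 8.95% to 11.3%). For peaks within 100 bp of the end of 1 gene, the share by the start was 99.3% (2311 of 2327), and for peaks near ends of several genes 94.3% (923 of 979). Intervals are exact binomial ones and cover counting error only. Differences between groups of peaks were not tested here, since regions of 1 merged list are not replicates.

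Among all members, 1408 lay outside their gene (43.3%, 41.6% to 45.0%) and 1843 inside it (56.7%). The side differed by distance. Up to 250 bp, 57.8% of 1224 members were outside (55.0% to 60.6%), between 250 and 500 bp 36.1% of 937, and beyond 500 bp 33.2% of 1090. This pattern was seen at gene starts, where the outside shares were 57.6%, 34.0% and 28.5% in the same order. By the 3′ end, they were 58.8%, 51.4% and 54.6% of 34, 74 and 152 members.

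Counted per 100 bp of distance, summits before a start numbered 363 up to 250 bp, 89.2 between 250 and 500 bp and 40.8 beyond 500 bp, against 1305 in the first 100 bp, which are not members. Inside the gene the same densities were 267, 173 and 102, against 1006 in the first 100 bp. The fall with distance was thus shallower inside genes than before them. By the 3′ end the densities stayed between 9.33 and 16.6 per 100 bp on both sides over the members' distances, with 9 outside and 7 inside in the first 100 bp.

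**Figure D1:**
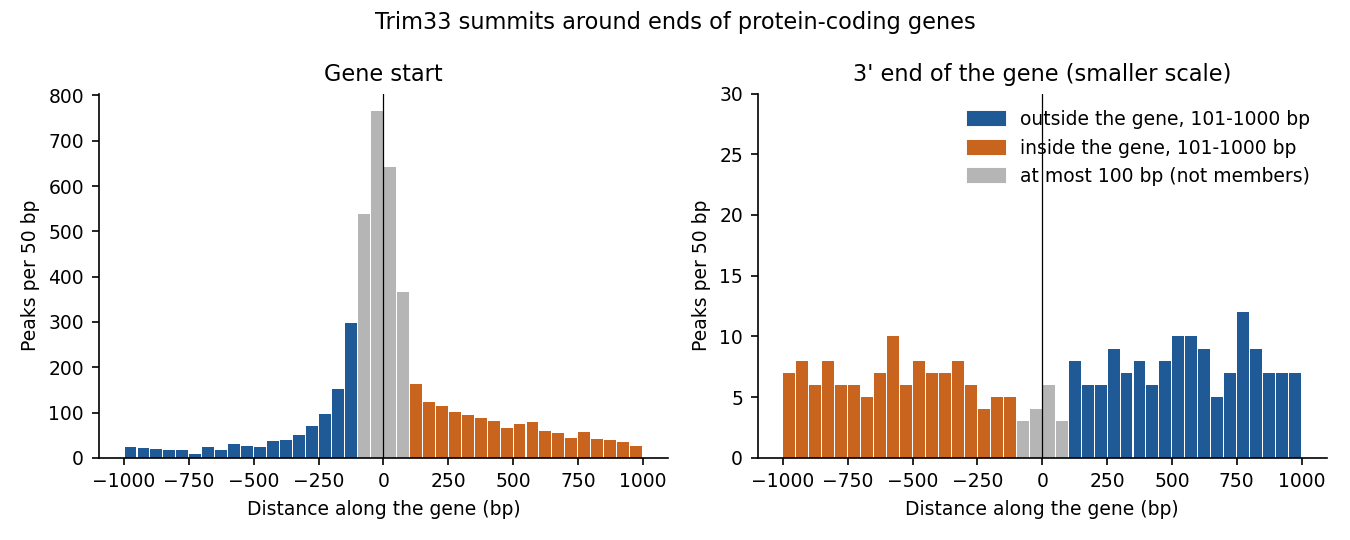
Number of Trim33 summits per 50 bp (vertical axis) by distance from the gene start (left) or from the 3′ end (right, on a smaller scale), in the direction of transcription, with outside and inside members coloured and the nearest 100 bp in grey. Members by the start thin out with distance on both sides, more slowly inside the gene, and those by the 3′ end show no crowding at the end itself.

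Many members inside a gene start sat beside a recorded start that lay within the gene. Of the 1345 members inside, 418 (31.1%, 28.6% to 33.6%) lay within 100 bp of such a start. How many of these genes also have a recorded start at the gene end was not counted. Peaks were wide enough to touch the end itself in part of the cases. The called region spanned the gene end in 751 members (23.1%), with 50.1%, 13.9% and 0.734% over the same 3 distance ranges. By the start 25.9% of members did so, and by the 3′ end 1.54%.

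Enrichment was given by the authors as the fold of the signal at the summit over its background. Members had a median of 5.67-fold (quartiles 4.61 and 7.27, range 2.52 to 40.3), against 6.07 for peaks within 100 bp of 1 gene end, 5.65 for peaks near ends of several genes, 6.07 for peaks outside genes, over 1000 and at most 10000 bp away, and 6.00 for all peaks of chromosomes 1 to 19. The 95% interval of the median was 5.57 to 5.75 for members and 5.95 to 6.04 for all peaks. At 10-fold or more there were 261 members (8.03%, 7.12% to 9.02%), against a background of 11.1% over all peaks. The members' count lay below that background, as their median did. At the same level the share was 10.6% for peaks within 100 bp of 1 gene end and 7.25% near ends of several genes.

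Among members, enrichment was higher outside genes and nearer to the end. Outside the gene the median was 5.93-fold (5.80 to 6.11), and inside 5.43-fold (5.34 to 5.55). Over the 3 distance ranges it was 5.88, 5.63 and 5.48, and the share at 10-fold or more was 10.1%, 8.64% and 5.14%. By gene starts the median was 5.91 outside and 5.48 inside, and by 3′ ends 6.22 outside (5.76 to 6.53) and 5.57 inside. Members had a median width of 255 bp, against 227 bp for all peaks, 260 bp for peaks within 100 bp of 1 gene end and 263 bp near ends of several genes. Their median −log10 q was 9.88, against 11.2 for all peaks, 11.7 within 100 bp of 1 gene end and 10.3 near ends of several genes.

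**Figure D2:**
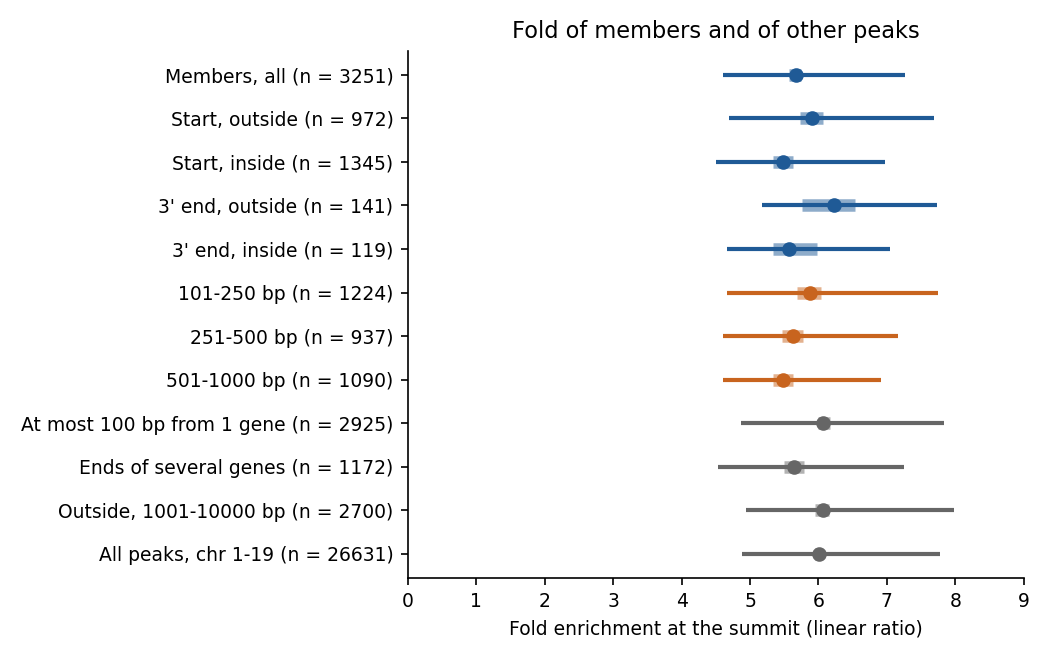
Fold enrichment at the summit (horizontal axis) for subsets of the members and for other groups of peaks, as the median (point), its 95% interval (shaded) and the quartiles (line). By the start, members outside the gene have a median of 5.91-fold and those inside 5.48-fold, and all members together, at 5.67, sit below all peaks, at 6.00.

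The distance limits cut through a continuous range of values. Just inside the lower limit, Pum2 had 15.4-fold and Jak3 8.36-fold enrichment, both 1 bp beyond it, and just outside it Calm3 had 15.6-fold and Tigd2 14.5-fold, both at 100 bp. At the upper limit, Lrmp had 4.43-fold and Osbpl3 4.20-fold enrichment at 1000 bp, and Rimkla 9.34-fold and Hnrnpl 7.52-fold 1 bp farther, which left them out.

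The highest member was 164 bp before the start of Bpifc, which encodes a protein of the BPI fold family, with 40.3-fold enrichment. It ranked 6 among all peaks, whereas the next member ranked 68. That next member lay 129 bp outside Ino80c, a subunit of the INO80 chromatin remodeller, at 23.6-fold, followed by Ccny, the gene of cyclin Y, at 21.7-fold and 161 bp. Kcnn4, a calcium-activated potassium channel used by activated T cells, had 20.9-fold enrichment 143 bp inside the gene, counted from its first base. Its nearest recorded start lay 294 bp from the summit and not at the first base. Atg10, an autophagy enzyme, had 20.6-fold enrichment 598 bp inside, the farthest of the 10 highest. Jak2, the cytokine receptor kinase, had 20.6-fold enrichment 159 bp before its start. Cenpu, a centromere protein, and Cdkn2aip, a partner of the tumour suppressor Cdkn2a product, had 20.1-fold and 19.3-fold at 142 and 152 bp before their starts. Crem, a cAMP-responsive transcription factor, and Sfxn1, a mitochondrial serine transporter, shared 18.96-fold at 169 and 179 bp inside their genes. Of these 10, 9 thus lay within 200 bp of the gene end, whereas 2308 of all 3251 members lay more than 200 bp away. The summits in Atg10 and Sfxn1 were 140 and 10 bp from a recorded start of the same gene other than the gene end.

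Other summits were often close by. A member had another summit within 1000 bp in 1118 cases (34.4%, 32.8% to 36.1%), against 15.0% for peaks within 100 bp of 1 gene end, 27.0% near ends of several genes, 17.4% for peaks outside genes, over 1000 and at most 10000 bp away, and 19.7% for all peaks. By gene starts the share was 20.7%, 41.6% and 50.8% over the 3 distance ranges. By 3′ ends it was 16.9%. For 470 members (14.5%), a peak within 100 bp of the same gene end was called as well.

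Of 20665 protein-coding genes, 2833 had at least 1 member (13.7%), and 2918 (14.1%) had a peak within 100 bp of an end, with 480 genes having both. Of the genes with a member, 2460 had 1, 332 had 2, 37 had 3 and 4 had 4. At 200 of the 2894 gene ends with a member (6.91%), members lay on both sides of the end. Among chromosomes 1 to 19, the number of members ran from 94 on chromosome 16 to 261 on chromosome 11, and the share of genes with a member from 10.9% on chromosome 2 to 16.7% on chromosome 3.

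The 41 genes with 3 or more members held 127 of them. In 26 genes all members were at 1 end, 18 of these at the start, 2 at the 3′ end and 6 with the direction not known, and in 24 of the 26 they lay on both sides of that end. In the other 15 genes members lay at both ends. The 4 genes with 4 members were Cish, Skil, Top2b and Zfp51. Top2b, the topoisomerase that relieves DNA strain in non-dividing cells, had all 4 at its start, within 1465 bp and between 3.92-fold and 6.18-fold. Gadd45b, a stress-response gene, had 3 at its start within 1524 bp, up to 8.44-fold. Gsk3b, a kinase of the Wnt and insulin pathways, and Kat2b, a histone acetyltransferase, each had 3 at the start, with the highest at 5.51-fold and 7.62-fold. Mat2a, the enzyme that makes the methyl donor S-adenosylmethionine, had 3 within 825 bp, up to 6.09-fold. Spry1, an inhibitor of receptor kinase signalling, had 2 by its start, up to 11.5-fold, and 1 by its 3′ end. Hcfc2, a relative of host cell factor, and Mgll, a lipase, were the 2 genes with all members at the 3′ end, up to 11.5-fold and 8.79-fold.

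Members by 3′ ends were few but reached high values. Pomc, the precursor of melanocortins and endorphin, had 17.6-fold enrichment 614 bp inside its 3′ end, and P2ry14, a receptor for UDP-sugars, had 16.1-fold enrichment 223 bp beyond it. These genes were picked after their values were seen. Itgam, an integrin of myeloid cells, had 12.4-fold enrichment 567 bp beyond its 3′ end, and Junb, an AP-1 subunit, had 10.2-fold enrichment 358 bp beyond its own. Cd3d, a chain of the T cell receptor complex, had 10.2-fold enrichment 354 bp inside its 3′ end. At 10-fold or more there were 20 of the 260 members by 3′ ends (7.69%) and 184 of the 2317 by starts (7.94%).

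Genes of TGF-beta and SMAD signalling were counted among the 20 gene lists used, which were drawn up with earlier results of these data known. Of 34 genes in the list, 20 had a member (58.8%), against a background of 13.7% of all protein-coding genes, and 10 had a peak within 100 bp of an end (29.4%), against 14.1% of all genes. Their 25 members had a median of 5.91-fold, against 5.67 over all members. Among the receptors, Bmpr1a, a BMP receptor, had 12.9-fold enrichment 607 bp inside its start. The activin receptor gene Acvr1b had 6.88-fold, Bmpr2 6.22-fold, Tgfbr1 6.20-fold, Tgfbr2 4.86-fold by its 3′ end, and Tgfbr3, a co-receptor, 4.15-fold. Tgfb1, the ligand, had a member of 7.14-fold 775 bp beyond its 3′ end. Apart from Bmpr1a, the receptor genes lay between 4.15-fold and 6.88-fold.

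Of the SMAD genes, Smad1, which transmits BMP signals, had 9.73-fold enrichment 108 bp before its start and 5.78-fold inside. Smad2 and Smad3, which transmit TGF-beta signals, had 4.20-fold and 3.34-fold, and Smad5 had 4.24-fold. Among repressors and modifiers of the pathway, Skil, the SMAD co-repressor SnoN, had 4 members. Its highest, at 31094368 to 31095309 on chromosome 3 and 361 bp outside the gene, had 16.3-fold enrichment, and the others had 5.91-fold at 875 bp outside, 4.94-fold at 530 bp inside, and 3.43-fold at 405 bp outside the other end. Tgif1, another SMAD co-repressor, had 12.6-fold enrichment 571 bp inside its start and 4.75-fold before it. Usp15, a deubiquitinase of SMADs, had 9.34-fold, Zeb1, a SMAD-binding repressor, 8.51-fold, and Smurf1, a ubiquitin ligase of the pathway, 7.44-fold. Trim33 itself had a member of 5.30-fold 411 bp inside its gene.

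Of 24 genes of the Th17 list, 11 had a member (45.8%), against 13.7% of all genes. A peak within 100 bp of an end was called for 6 of the 24 (25%), against 14.1% of all genes. Stat3, also counted among the JAK-STAT genes, is activated by IL-6 and had 13.1-fold enrichment 160 bp before its start at 100939589 to 100939933 on chromosome 11, and 4.68-fold inside its 3′ end. Il21, a cytokine that Th17 cells make and respond to, had 11.6-fold enrichment 424 bp before its start at 37232621 to 37233167 on chromosome 3. Ccl20, the ligand of the Th17 chemokine receptor Ccr6, had 9.56-fold enrichment 923 bp beyond its 3′ end. Il17f and Il17a, the signature cytokines, had members 929 and 822 bp inside their starts, at 9.59-fold and 6.18-fold.

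Of 18 genes that are linked to IL-10 or encode inhibitory receptors, 11 had a member (61.1%), against 13.7% of all protein-coding genes. Bhlhe40, a transcription factor that restrains Il10, had the highest, 14.2-fold at 337 bp outside the gene. Lag3, an inhibitory receptor of T cells, had 9.34-fold outside and 8.51-fold inside, at 580 and 716 bp. Il10ra, the ligand-binding chain of the IL-10 receptor, had 8.87-fold, Tigit, another inhibitory receptor, 8.27-fold, and Btla 5.48-fold and 5.34-fold at its 2 ends. The list's median was 5.55-fold, against 5.67 over all members.

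**Figure D3:**
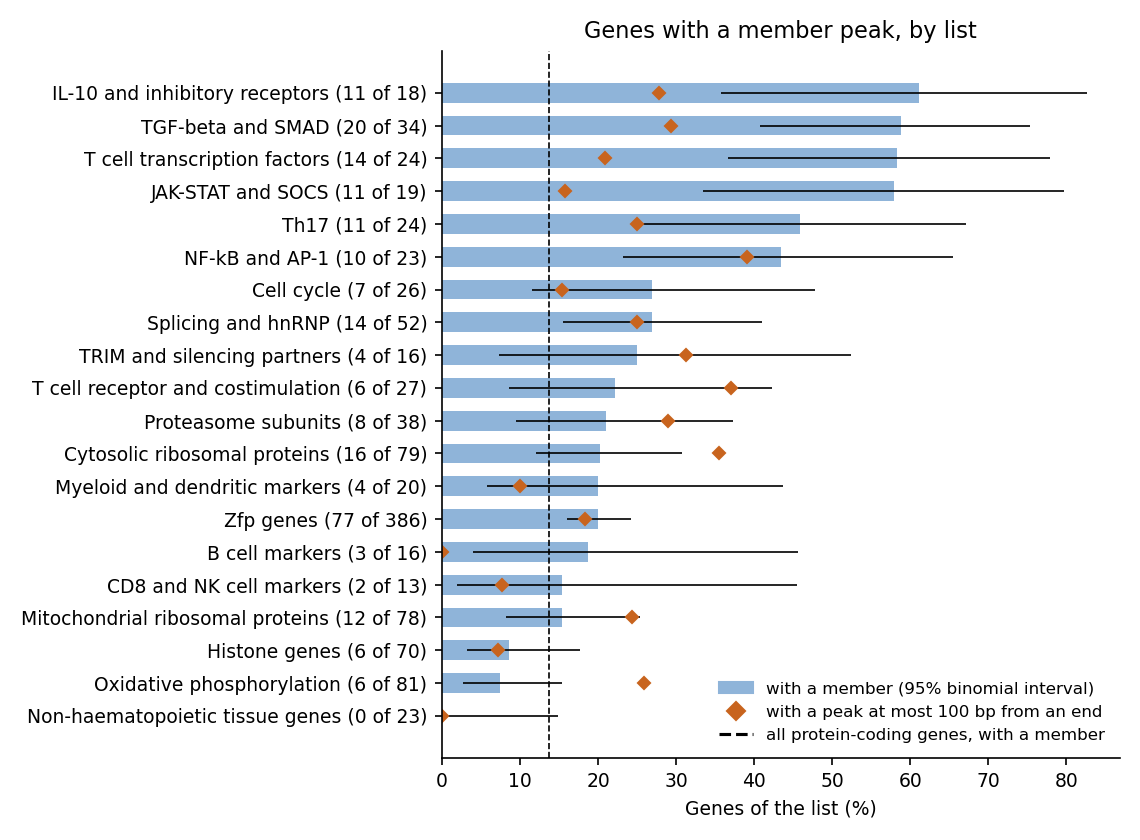
Percentage of the genes of each list with a member (bars, with exact 95% intervals), the percentage with a peak within 100 bp of an end (diamonds), and the percentage of all protein-coding genes with a member (dashed line). The TGF-beta, IL-10 and inhibitory receptor, JAK-STAT and T cell transcription factor lists lie between 57.9% and 61.1%, against 13.7% of all genes.

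The JAK-STAT and SOCS list holds signal carriers of cytokine receptors and their feedback inhibitors. Of its 19 genes, 11 had a member (57.9%), against 13.7% of all protein-coding genes. A peak within 100 bp of an end was called for 3 of the 19 (15.8%), near the 14.1% of all genes. Beside Jak2 and Stat3, the kinase gene Jak3 had 8.36-fold enrichment just inside its start and Jak1 4.66-fold. The inhibitor genes Socs2 and Socs5 had 1 member each, at 5.43-fold and 5.94-fold, and Socs1, Socs3 and Cish had several. Socs1 had 10.5-fold 349 bp inside its start and 3.86-fold before it. Socs3 had 9.47-fold and 4.90-fold inside the gene, counted from its first base, and 5.02-fold beyond its 3′ end. The 9.47-fold summit lay 694 bp before the nearest recorded start, and the 4.90-fold summit lay 11 bp from that start. Cish had 7.26-fold inside its start, 6.65-fold and 3.87-fold before it, and 6.36-fold beyond its 3′ end. The 18 members had a median of 5.68-fold, against 5.67 over all members.

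Of 23 genes of NF-kB and AP-1, 10 had a member (43.5%), against 13.7% of all genes. The list's median was 8.19-fold, the second highest among lists with 10 or more members. Nfkbie, an inhibitor of NF-kB, had 12.4-fold enrichment 109 bp before its start, Rel, an NF-kB subunit, 9.30-fold 131 bp before its own, and Relb 9.24-fold inside. Nfkbia, another inhibitor, had 8.63-fold 649 bp inside, and Jun 8.19-fold 235 bp before its start. Of 27 genes of the T cell receptor and costimulation list, 6 had a member (22.2%, 8.62% to 42.3%), an interval that includes the 13.7% of all genes. A peak within 100 bp of an end was called for 10 of the 27 (37.0%), against 14.1% of all genes. Malt1, a signalling scaffold and protease, led the list's members with 15.7-fold at 430 bp outside the gene.

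Of 24 further T cell transcription factors, 14 had a member (58.3%), against 13.7% of all genes. None of the list's 18 members reached 10-fold, a level that 8.03% of all members reached. The highest were Ikzf2, an Ikaros family factor, at 7.66-fold, and Egr1 at 6.69-fold. Klf2 had a member at each end, 6.08-fold and 6.30-fold, and Foxo1, Satb1 and Cbfb had members on both sides of their start between 4.46-fold and 6.24-fold. Of 16 TRIM and silencing partners, 4 had a member (25%, 7.27% to 52.4%), led by the histone deacetylases Hdac1 and Hdac2 at 5.63-fold and 5.52-fold. Of 26 cell cycle genes, 7 had a member (26.9%, 11.6% to 47.8%), led by Cdkn2d, an inhibitor of cyclin-dependent kinases, at 8.14-fold. Both intervals include the 13.7% of all genes.

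**Figure D4:**
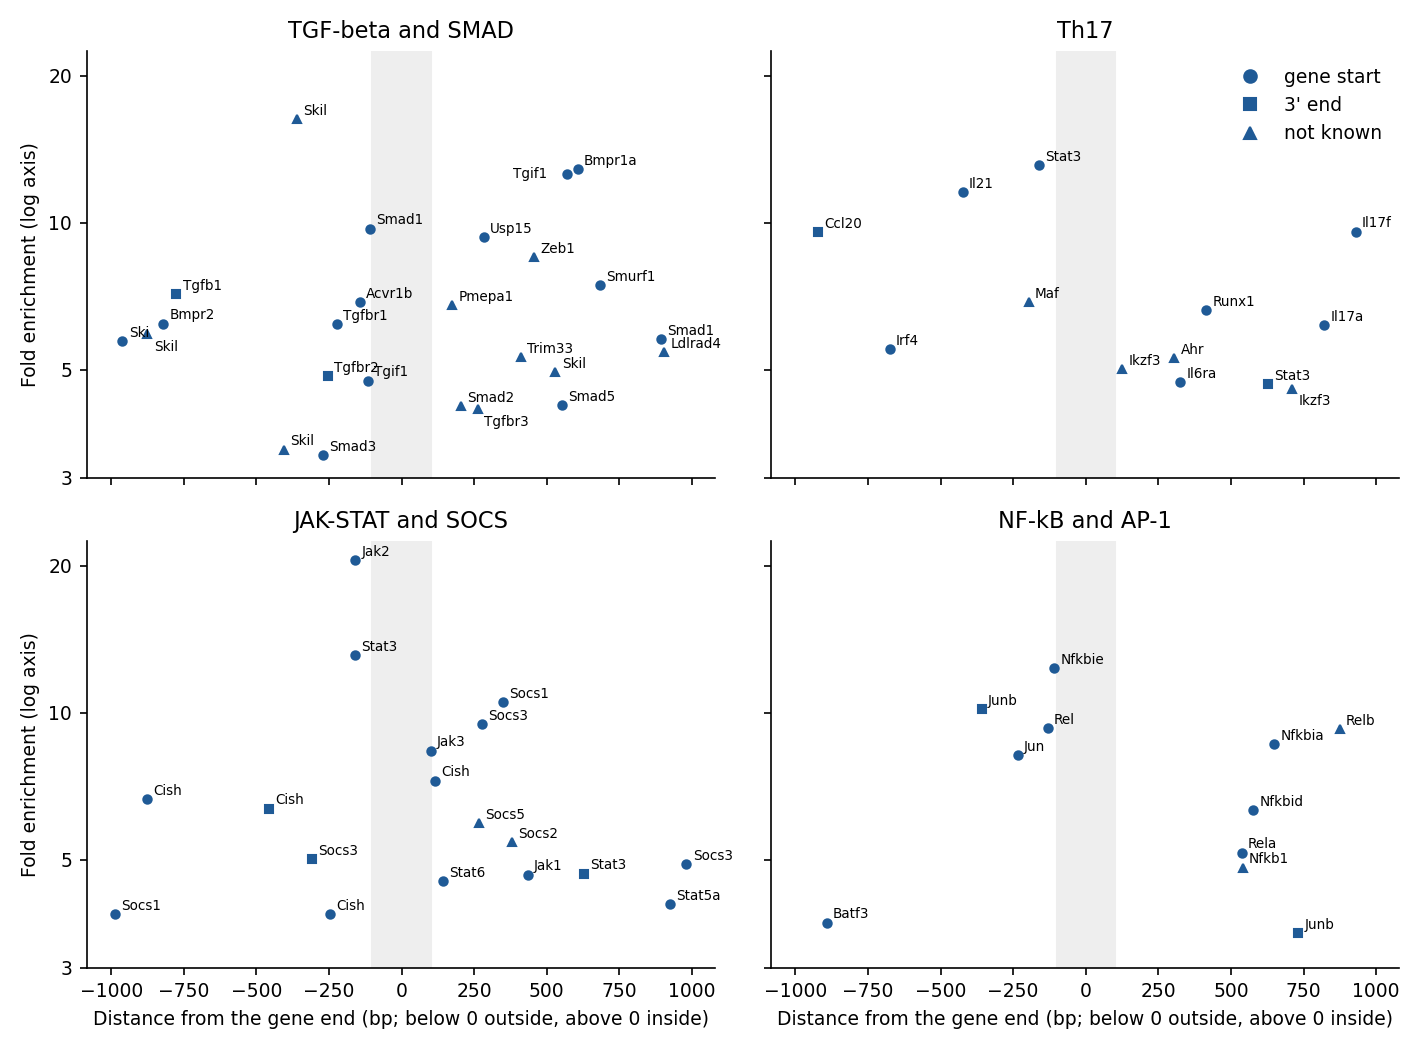
Fold enrichment of each member (vertical axis) by its distance from the gene end (horizontal axis, negative outside the gene) for genes of 4 lists, with the shape giving the gene end and the grey band the nearest 100 bp, which hold no members. Skil at 16.3-fold, Bmpr1a at 12.9-fold, Jak2 at 20.6-fold, Stat3 at 13.1-fold, which is in 2 of the lists, and Nfkbie at 12.4-fold are among the highest.

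Lists of genes of other cell types had shares between 15.4% and 20%, against the background of 13.7%, or none. These lists are short, and the interval of each includes 13.7%. Of 16 B cell markers, 3 had a member (18.8%, 4.05% to 45.6%) and none had a peak within 100 bp of an end, against 14.1% of all genes. The highest were Pou2af1, a B cell co-activator, at 10.4-fold and Ebf1, a B lineage transcription factor, at 6.34-fold by its 3′ end. Of 20 myeloid and dendritic markers, 4 had a member (20%, 5.73% to 43.7%). Of 13 CD8 and NK cell markers, 2 had a member (15.4%, 1.92% to 45.4%), Cd8b1 at 8.92-fold and Prf1 at 5.88-fold. None of 23 genes of non-haematopoietic tissues had a member, for which the interval reaches up to 14.8%, and none had a peak within 100 bp of an end.

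Gene families of general cell function had shares between 7.41% and 26.9%, against the background of 13.7%. Their intervals include 13.7%, except those of the Zfp genes (16.1% to 24.3%) and the splicing and hnRNP genes (15.6% to 41.0%). Of 79 cytosolic ribosomal protein genes, 16 had a member (20.3%), with a median of 4.75-fold and Rpl38 as the highest at 13.6-fold. Of 78 mitochondrial ribosomal protein genes, 12 had a member (15.4%). A peak near ends of several genes, which the rule leaves out, was called for 27 of the 78 (34.6%), against 9.78% of all genes. The 12 members of this list had a median of 8.42-fold, the highest of all lists with 10 or more members. Of these 12, 5 were at 10-fold or more, a level that 8.03% of all members reached. The 5 were Mrpl17 at 16.6-fold, Mrpl23 at 13.7-fold, Mrpl1 at 12.4-fold, Mrpl22 at 10.8-fold beyond its 3′ end and Mrpl16 at 10.2-fold. Of 81 genes of oxidative phosphorylation, 6 had a member (7.41%), led by Atp5g2 at 10.3-fold. A peak within 100 bp of an end was called for 21 of the 81 (25.9%), against 14.1% of all genes. A peak near ends of several genes was called for 24 (29.6%), against 9.78%. Of 38 proteasome genes, 8 had a member (21.1%), led by Psmc6 at 10.6-fold. Zfp genes, most of which encode zinc finger proteins, held 88 members in 77 of 386 genes (19.9%), with Zfp366 at 15.4-fold and Zfp703 at 13.3-fold. Of 52 splicing and hnRNP genes, 14 had a member (26.9%), with a median of 4.60-fold, and of 70 histone genes 6 (8.57%), the highest H1f0 at 6.67-fold.

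The promoter sequence was described for 936 members whose summit lay in a RefSeq promoter window, in 935 windows, with 478 summits outside the gene and 458 inside. GC made up 66.7% of the letters in these windows, against 63.0% in the 2005 windows with a peak within 100 bp of the end and 56.5% in all 20085 windows. Members' windows held GGGCGG in 80.3% (77.6% to 82.8%), against 75.5% of windows with a peak within 100 bp and 47.0% of all. CCGGAA occurred in 32.5% (29.5% to 35.6%), against 35.2% and 19.1%, and GCGCATG in 8.24%, against 8.73% and 4.84%. The other motifs had lower shares in members' windows than in all windows. The SMAD motif CAGAC occurred in 42.4% (39.2% to 45.6%), against 45.9% and 48.4%, CCAAT in 33.7%, against 32.6% and 38.1%, and TGTGGT in 10.3%, against 12.1% and 14.8%. TGANTCA occurred in 5.45%, against 4.49% and 7.06%, TTCNNNGAA in 6.42%, against 6.18% and 7.78%, and AGGTCA in 8.77%, against 10.6% and 14.7%. GC content differed between these groups of windows, and its part in the motif shares was not tested.

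Within the window, motifs lay unevenly around the summit. Within 50 bp of it, CCGGAA had 20.3 matches per 10 kb, against 8.14 at the same positions of all promoters, a ratio of 2.50, and farther away in the window the ratio was 1.43. CCAAT had 8.61 matches per 10 kb within 50 bp, against 19.8 in all promoters, a ratio of 0.435, and 20.4 against 18.4 farther away. GGGCGG had 79.5, against 34.9 (ratio 2.27), and 66.5 against 34.7 farther away. GC made up 68.8% of the letters within 50 bp of the summit and 65.7% farther away in the window. The part of GC content in these densities was not tested. In steps of 20 bp, CCGGAA matches had densities of 22.4, 19.9 and 19.9 per 10 kb in the first 3 steps, and between 9.57 (at 140 to 159 bp) and 16.1 (at 160 to 179 bp, from 25 matches) in the steps beyond, without a steady fall. CCAAT had 7.27 in the first step, 25.4 at 100 to 119 bp, 25.8 at 160 to 179 bp and 13.7 at 180 to 199 bp.

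**Figure D5:**
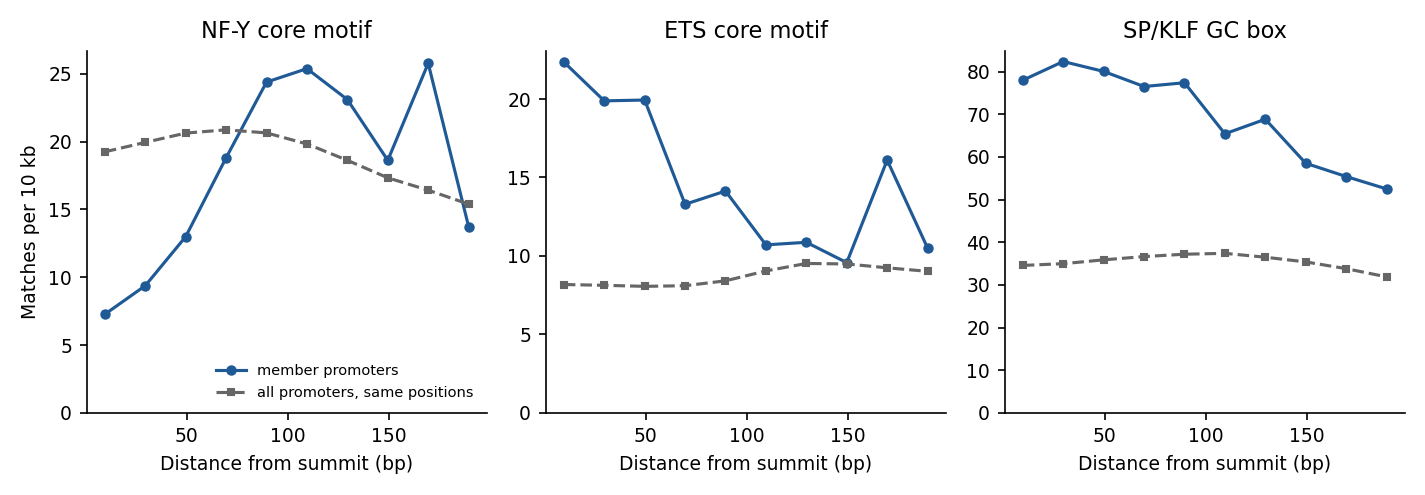
Matches per 10 kb (vertical axis) of the NF-Y, ETS and SP/KLF motifs by distance from the summit (horizontal axis, in bp, on either side) in promoter windows of the members (solid), and at the same positions of all promoters (dashed). The ETS motif has its highest density, 22.4 per 10 kb, in the step at the summit, where the NF-Y motif has its lowest, 7.27, and both vary from step to step farther away.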

How the data were processed

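Trim33 ChIP and input libraries (2 each, 4 samples) were analysed as 1 deposited peak list. Per the submitters' processing notes, the authors worked with MACS2 2.1.1.20160309, Trim Galore 0.3.7 and Bowtie 1.2.1.1 on build mm10. Neither the settings, the control nor the cut-off is given in the sources used here. The authors called peaks on merged replicates and deposited for each a score, a fold enrichment (a ratio of summit signal over background), and the −log10 of p-value and q-value, of which fold and −log10 q were used only to describe, rank and filter peaks of this list.

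The summit was taken as the deposited start plus summit offset, counted from 1. Classes, shares with exact 95% binomial intervals, distances and motif matches were computed with Python 3.11.15, pandas 2.3.3, numpy 2.4.6 and scipy 1.17.1, figures were drawn with matplotlib 3.10.9, and the scripts were tested on simulated data. Direction came from RefSeq promoter records, which cover 81.7% of members not on chromosome 18 and none on it. Sequence was printed only for summits before a gene. The members and lists were chosen with earlier results of these data known. Named are the 10 highest members, the 2 highest of each list, genes with 3 or more members, the peaks nearest to each limit and, for sequences, at most 8 named promoters; further list members were chosen after their values were seen. Alternatives changed the threshold, the distance limits, the position used and the rule on other genes.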

Additional observations from a re-analysis of the deposited data

How the results depend on the processing

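The 15 summary values were recomputed under 8 alternatives, giving 120 values, of which 89 stayed within the interval of the main value or, for counts, within 1.5 times it. With only peaks at or above the median fold, or the median −log10 q, 1400 and 1426 members were left, 49.6% and 50.9% lay outside, the median fold was 7.65 and 7.62, the share at 10-fold or more 18.6% and 18.3%, the share of genes with a member 6.49% and 6.64%, CCGGAA occurred in 35.7% and 36.0% of promoters and GGGCGG in 83.0% and 82.8%, and by the second measure 88.2% lay by the start. With an upper limit of 500 bp there were 2161 members, 48.4% outside, 93.7% by the start, a median of 5.75-fold, 9.49% at 10-fold or more and 9.77% of genes. With a lower limit of 200 bp, 35.8% lay outside, 87.0% by the start, the median was 5.55-fold, 6.98% reached 10-fold, 10.05% of genes had a member, and CCAAT and GCGCATG occurred in 28.9% and 5.54% of promoters. With the peak midpoint, 39.4% lay outside. The share of genes was 15.8% where ends of other genes were allowed and 15.5% without Gm, Rik, Olfr and Vmn symbols, an alternative added after seeing the data. The stricter sets are part of the same list, so their higher fold follows from their construction. No paired analysis was possible because replicates were merged before peaks were called, and for the same reason no replicate could be left out. Depth is unknown, so a gene without a peak is not shown to lack Trim33.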

Other observations

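Long non-coding RNA genes also had ends near some members. A summit lay within 100 bp of a lncRNA end for 113 members (3.48%), against 5.64% of peaks within 100 bp of a protein-coding end, 1.33% of peaks outside genes, over 1000 and at most 10000 bp away and 1.94% of all peaks. By gene starts it was so for 50 members before the start (5.14%) and 39 inside it (2.90%), and by 3′ ends for 0 of 260, which allows a share of up to 1.41%.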
